A study of Mus musculus with 9 samples.

Results

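The genes described are 42 members of the coagulation and complement systems, measured in mouse liver. A list of 44 genes was matched by Ensembl ID to symbols, and a gene was kept when its mean normalised read count (baseMean) reached 10 in both deposited tables. Of the 44, Cfb, which encodes complement factor B, stood at 10.5 and 7.08 and Cfd, which encodes the adipocyte protease factor D, at 6.93 and 7.74, so both were left out. The member nearest the limit was F3, at 66.4 and 51.7. In the whole series 12477 genes met the same limit. By the main source of the protein, 19 members are hepatocyte coagulation genes, 15 are hepatocyte complement genes, 3 are the C1q chains of macrophages and 5 are made mainly by other cells.

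Liver RNA was sequenced from C57BL/6 mice in 3 groups of 3 samples. The normal group was given saline, and no diet is named for it. The model group was fed a methionine and choline deficient (MCD) diet, which blocks the export of fat from hepatocytes and gives fatty liver with inflammation. The SAR group was fed the same diet and was also treated with sarsasapogenin (SAR), a plant steroid, at what the labels call a high dose, with no amount, route or duration stated. Age, sex and housing are not given. No label says that the samples came from separate animals, so each p-value refers to variation among the samples as labelled, which may not be variation between animals.

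Most plasma clotting factors, their inhibitors and most complement proteins are made by hepatocytes and secreted into blood. The clotting cascade runs from tissue factor with factor VII, or from the contact system, through factor X to thrombin, which cuts fibrinogen into fibrin, and plasmin later dissolves the clot. Complement starts through C1q, through mannose-binding lectins or by itself, converges on C3 and C5, and ends in a pore made of the terminal components. C1q is an exception among these proteins, since it is made mainly by macrophages, which in liver are Kupffer cells and recruited monocyte-derived cells.

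The deposited tables hold group means, from which the reads of single libraries could be recovered for 36 members in all 9 libraries. Fga, Fgb, Fgg and C3 were not recovered in the normal and SAR groups, and Plg and Kng1 not in the normal group, so these are given as the authors deposited them. Within each group the 3 recovered libraries cannot be tied to the labels' replicate numbers, and letters a to c rank them by falling size factor, so that normal a is the normal library with the largest. Reads recovered per library ranged from 6367563 to 10802657. Log2 values correlated across 12289 genes with Pearson's r of 0.977 between normal a and normal b and of 0.925 to 0.934 between either and normal c. For the model group these values were 0.980 and 0.928 to 0.940, and the SAR libraries correlated at 0.962 to 0.970. Normal c held 41045 normalised reads of Lcn2, an acute phase and neutrophil gene, against 90.3 and 262 in the other normal libraries.

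Hepatocyte-made and macrophage-made members moved in opposite directions. In the model group 21 of the 28 hepatocyte-made members tested fell against normal and none rose, with a median log2 fold change of -1.02, whereas C1qa, C1qb and C1qc all rose, by a median of 1.26. Over all 42 members, of which 36 were tested, 5 rose, 22 fell and 9 did not pass the test. The test was limma on log2(value + 1) on 12563 genes, at a Benjamini-Hochberg adjusted p of 0.05. Of all genes 20% were called higher and 19% lower, and their median log2 fold change was 0.03.

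With SAR the directions turned. Against the model group 24 of the 30 hepatocyte-made members tested rose and none fell, with a median of 0.96, and all 3 C1q genes fell, with a median of -1.28. Of the 38 members tested, 24 rose, 6 fell and 8 did not pass, beside 13.2% of all 12470 genes called higher and 16.2% called lower. Both comparisons use the same model libraries, so their opposite signs are not independent of each other. On a common scale over the 9 libraries, the model libraries lay below all 6 others for 22 of 28 hepatocyte-made members (78.6%) and above all 6 for the 3 C1q genes. Among 12289 genes the shares were 14.1% below and 17.1% above. In the model group the libraries did not overlap with normal, on the lower side, for 25 of 28 hepatocyte-made members, beside 26.5% of all genes. With SAR they lay wholly above the model for 26 of 30, beside 20.9% of all genes. In the authors' deposited tables, 5 of 42 members were called higher and 21 lower in the model group, beside 13.2% and 10.3% of 16374 genes. With SAR the authors' deposited table called 28 higher and 6 lower, beside 6.79% and 9.76% of 16294 genes.

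**Figure D1:**
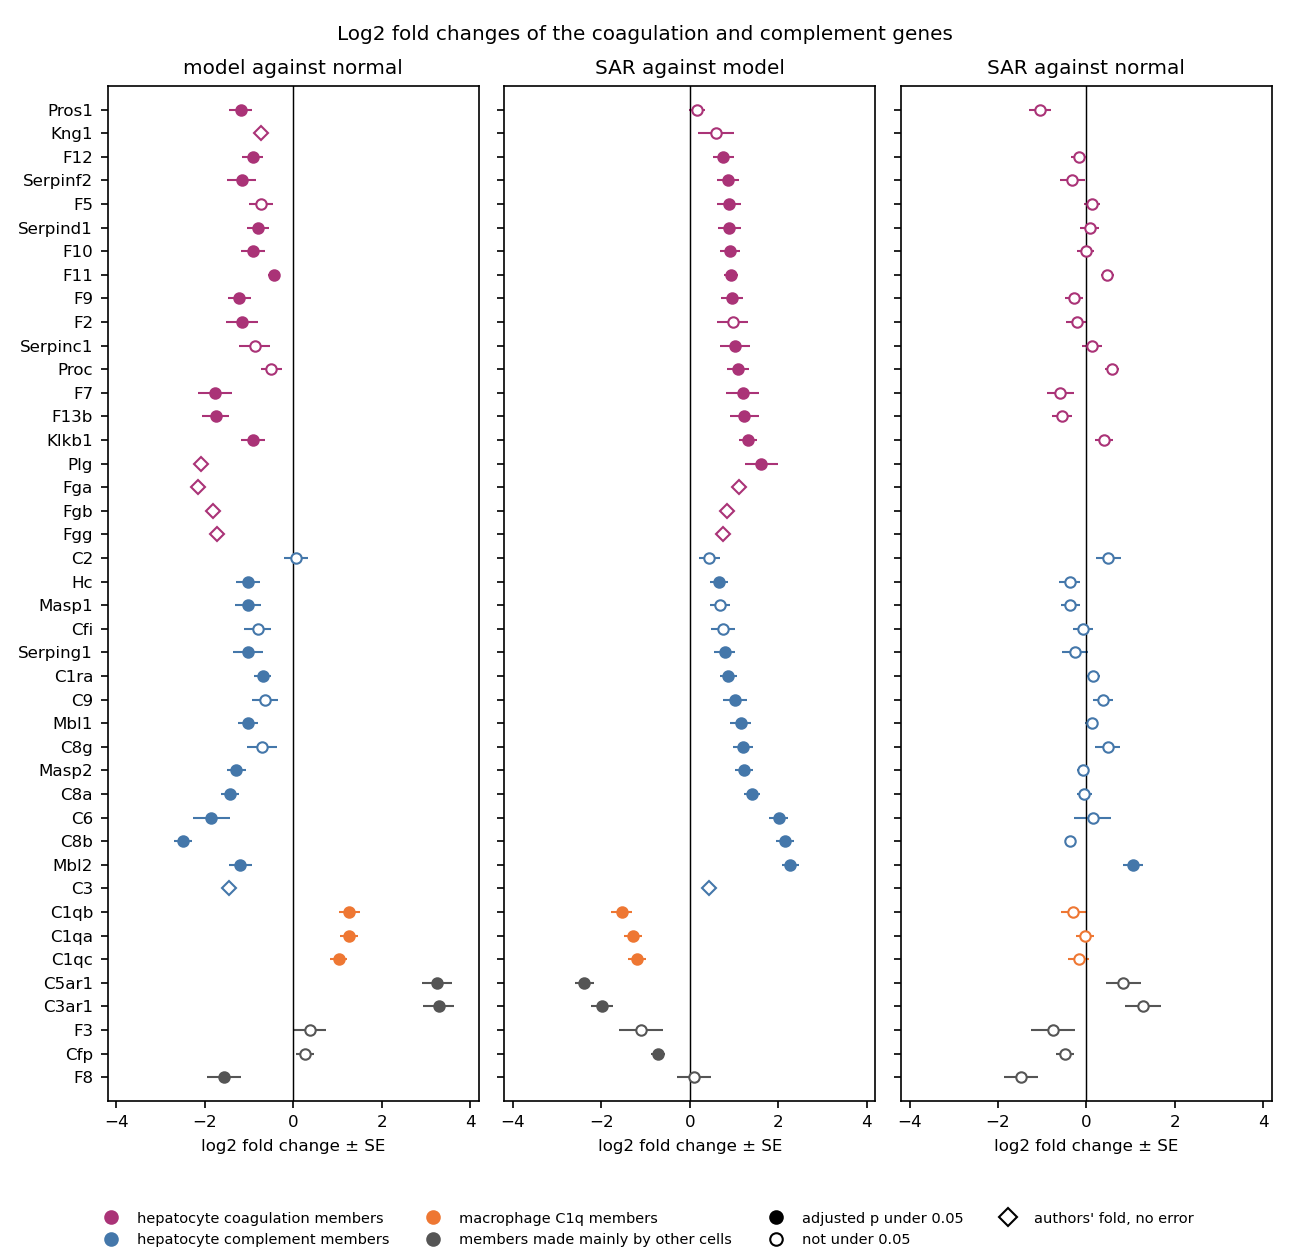
Log2 fold change of each member, on the log2(value + 1) scale, with its standard error, in 3 comparisons. Points are coloured by the source of the protein, filled points had a limma adjusted p under 0.05, and diamonds are the authors' deposited folds, which carry no error. Hepatocyte-made members lie left of 0 in the model group, except C2 at 0.06, and right of 0 with SAR, and the C1q genes lie on the opposite sides.

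How many members passed changed with the library left out, while the direction hardly did. In each fit with 1 library left out, 27 or 28 of 28 hepatocyte-made members lay below 0 in the model group. For 25 of these 28 the normal and model libraries did not overlap, so leaving out 1 library could hardly turn their sign. Without model c, 25 of 28 hepatocyte-made members fell in the model group, and without both normal c and model c 27 did. Without normal c alone the number was 15, and without normal a, normal b, model a or model b it was 12, 11, 10 or 9. Calls over all genes also moved, from 4897 of 12563 genes to 5785 of 12565 without model c, 7331 of 12647 without both and 2426 of 12416 without model b, while without normal c they numbered 4913 of 12615. Without normal a, normal b or model a they numbered 2913 of 12632, 3532 of 12600 and 2641 of 12382. F5 (adjusted p = 0.00859), Proc (0.015), Serpinc1 (0.016) and Cfi (0.0226) passed as lower without model c, C8g (0.0177) passed without normal c and C9 (0.0092) without both. The calls that held with each library left out in turn were those of F7, F9, F13b, Pros1, C6, C8a, C8b, Masp2 and Mbl2, 9 in all. With SAR, 27 of 30 rose without model c, where F2 (adjusted p = 0.00408), Cfi (0.00756) and Masp1 (0.00168) also passed and calls over all genes numbered 5158 of 12466 in place of 3663 of 12470. The number was 11, 9, 18, 10 and 11 without model a, model b, SAR a, SAR b and SAR c, and the calls of F11, Klkb1, C6, C8a, C8b, C8g, Masp2 and Mbl2 held throughout. In the same order, calls over all genes numbered 1671 of 12306, 1543 of 12349, 3370 of 12514, 1802 of 12566 and 2251 of 12549. All 30 kept a positive log2 fold change in each of these fits. For 26 of the 30 the SAR libraries lay wholly above the model, so here too the sign could hardly turn. The C1q calls held in each fit with 1 library left out, in both comparisons.

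Abundance and scaling bear on the size of the hepatocyte changes. Of the 1486 tested genes whose mean was 1000 or more, 42.9% were called lower and 7.4% higher in the model group, with a median of -0.55, whereas 19 of 25 hepatocyte-made members at that level fell, with a median of -1.02. With SAR, 38.7% of 1502 such genes were called higher and 5.86% lower, with a median of 0.51, against 22 of 27 hepatocyte-made members, with a median of 0.97. The summed group means of the authors' deposited table were 17077882 for normal and 11498055 for model, a log2 ratio of -0.57. On the scale of these sums, the median of the 34 hepatocyte-made members was -0.51 in place of -1.08, with 31 of 34 below 0 in place of 33. F11 and Proc changed sign there. For SAR against model the median was 0.36 in place of 0.93, with 30 of 34 above 0, and Kng1, Pros1, C2 and C3 changed sign. The C1q median was larger on that scale, at 1.80 in the model group and -1.84 with SAR, in place of 1.23 and -1.28. After quantile normalisation 11 hepatocyte-made members fell in the model group, with a median of -0.45, and 10 rose with SAR, with a median of 0.45. Calls over all genes were then 4422 of 12563 in the model group (4897 otherwise) and 2848 of 12470 with SAR (3663 otherwise). In these bulk samples, fewer cells of a type and less RNA per cell cannot be told apart.

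Of the summed group means in the authors' deposited tables, hepatocyte-made members took 4.67% in normal, 2.53% in model and 3.06% with SAR. The 3 fibrinogen chains alone made up 2.15% in normal, 0.854% in model and 1.08% in the SAR group. Of the hepatocyte-made sum of 797083 in normal, these chains held 367637 and C3 held 151086. With SAR, on the scale of the other table, the sum was 477108, with 167987 in fibrinogen and 68455 in C3. None of these genes passed in the authors' deposited table of model against normal. The part of normal c in their normal means was not tested. The C1q genes made up 0.0152% in normal, 0.0509% in model and 0.0138% in the SAR group.

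Per kilobase of exon, with exon lengths from GENCODE vM21, which may differ from the authors' annotation, the authors' normal group means spanned a wide range. Fgg, Fga and Fgb were highest at 43442, 43067 and 38604 normalised reads per kb, followed by C3 at 29377. Hepatocyte-made members other than C2 lay at or above 252 per kb, which was the level of Masp1. C1qa, C1qb and C1qc stood at 882, 821 and 403, and in the model group at 2116, 1926 and 808. In the model group C1qa was thus above C8a, at 923, and F10, at 1282, below both of which it stood in the normal group.

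**Figure D2:**
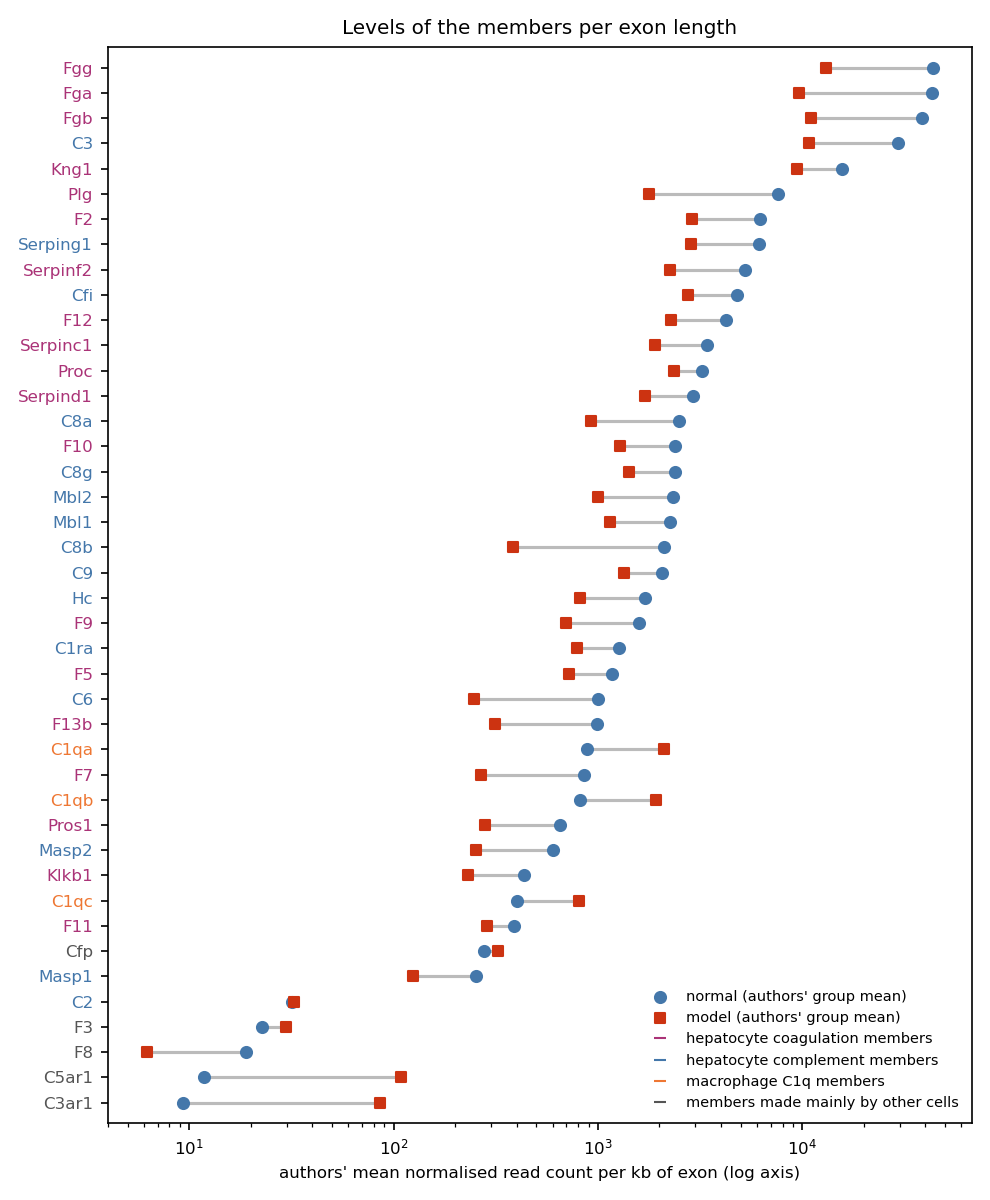
Authors' group means per kb of exon on a log axis, for normal (circles) and model (squares), in order of the normal level, with gene names coloured by the source of the protein. The fibrinogen chains and C3 are highest, C3ar1 and C5ar1 lowest in normal, and the C1q squares lie right of their circles while the hepatocyte squares lie left, except for C2.

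Stretches of promoter are shown for a hepatocyte gene and a macrophage gene that moved in opposite directions with SAR, Fgb and C1qb. They are the 220 bases before the RefSeq start, from the GRCm38.p6 build, at chr3:83049864-83050083 and chr4:136886201-136886420, both on the minus strand. Capitals mark TTGCNNAA, which resembles a site of C/EBP factors, in Fgb, and AGGAAGT, a site of the ETS type bound by factors such as PU.1 of myeloid cells, in C1qb, each on either strand.
Fgb: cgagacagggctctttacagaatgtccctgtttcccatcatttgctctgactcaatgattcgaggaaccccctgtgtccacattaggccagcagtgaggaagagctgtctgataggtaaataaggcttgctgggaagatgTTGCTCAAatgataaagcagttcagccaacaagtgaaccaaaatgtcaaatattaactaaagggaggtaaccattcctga
C1qb: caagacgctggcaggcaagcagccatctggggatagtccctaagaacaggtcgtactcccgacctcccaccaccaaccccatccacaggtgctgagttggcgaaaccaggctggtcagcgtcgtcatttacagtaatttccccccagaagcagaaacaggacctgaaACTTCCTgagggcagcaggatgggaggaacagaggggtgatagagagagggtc

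The match began 80 bases before the start in Fgb and 53 in C1qb. Windows of 250 bases before the start were matched by symbol and searched for 34 of the 42 members, 27 of them hepatocyte-made. TTGCNNAA was found in 7 of the 27, namely C3, C9, F11, F9, Fga, Fgb and Klkb1, and in none of the 7 others, beside 9.56% of all 32851 windows. AGGAAGT was found in 3 of the 7, C1qb, C1qc and C5ar1, and in 1 of the 27, Masp2, beside 7.69% of all windows. A member counted when any window of its symbol matched, whereas these shares are over single windows, so the units differ. Neither motif contains the other, the motifs were chosen after several had been searched, and a match is a description of letters only. Of hepatocyte transcription factors, Hnf4a and Cebpa fell in the model group, with log2 fold changes of -1.36 and -0.83 (limma adjusted p = 0.00463 and 0.0163), and rose with SAR by 1.22 and 0.99 (adjusted p = 0.00611 and 0.00659). The call of Cebpa in the model group was lost without normal a, model a or model b (adjusted p up to 0.0739). Secreted hepatocyte products outside the 2 systems varied, since in the authors' deposited table of model against normal Ahsg stood at 0.01 (adjusted p = 1), Alb at -0.19 (0.862) and Ttr at -0.31 (0.558), whereas Apoa1 at -0.65 (0.0362), Rbp4 at -1.02 (0.00229) and Apob at -1.19 (2.47e-05) passed.

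Among the clotting factors, 11 of 14 hepatocyte coagulation members tested fell in the model group and 3 did not pass, and 13 of 16 tested rose with SAR. F7, the factor that starts clotting with tissue factor, stood at 1249, 1093 and 1954 normalised reads in normal a, b and c, at 281, 324 and 747 in the model libraries and at 608, 1238 and 1036 with SAR. The normal and model libraries did not overlap, while SAR a lay below model c. The log2 fold change was -1.76 (SE 0.38, limma adjusted p = 0.011) in the model group and 1.19 (SE 0.38, adjusted p = 0.0435) with SAR. F13b, the carrier subunit of the factor that cross-links fibrin, stood at 2392, 2042 and 2339 in normal, at 470, 574 and 1103 in model and at 1065, 1826 and 1902 with SAR. It fell by 1.75 (SE 0.30, adjusted p = 0.0051) and rose by 1.23 (SE 0.33, adjusted p = 0.0248), with SAR a again below model c.

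F9, the protease of the tenase complex, stood at 3423, 3414 and 4902 in normal, at 1238, 1626 and 2262 in model and at 2681, 3710 and 3218 with SAR. The model libraries were the lowest 3, and F9 fell by 1.22 (adjusted p = 0.0107) and rose by 0.96 (adjusted p = 0.0193). F10, which forms prothrombinase, and F2, prothrombin, fell, with log2 fold changes of -0.91 and -1.16 (adjusted p = 0.0318 and 0.0407). F10 rose with SAR by 0.91 (adjusted p = 0.0197), and F2 did not pass there, at 0.97 (SE 0.35, adjusted p = 0.0634). F5, the cofactor of F10, stood at -0.74 (adjusted p = 0.0634) in the model group and rose with SAR by 0.89 (adjusted p = 0.0344).

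The contact system covers F11, F12, Klkb1, which encodes plasma prekallikrein, and Kng1, the kininogen. F11 had the smallest change of the called clotting factors in the model group, with 844, 732 and 765 reads in normal, 574, 537 and 620 in model, and 1071, 1288 and 919 with SAR. It fell by 0.44 (SE 0.13, adjusted p = 0.0327) and rose by 0.93 (SE 0.16, adjusted p = 0.00505), and each SAR library lay above each normal one. Klkb1 fell by 0.91 (adjusted p = 0.0314) and rose by 1.32 (adjusted p = 0.00322), and F12 fell by 0.92 (adjusted p = 0.0209) and rose by 0.76 (adjusted p = 0.0439). Kng1, which has a near-identical copy, Kng2, was at 20635, 26019 and 36073 in model and at 40475, 40538 and 38631 with SAR. The groups did not overlap, and the log2 fold change of 0.59 (SE 0.41, adjusted p = 0.293) did not pass.

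Per kilobase of exon in the normal group, the fibrinogen chains were the most abundant members. The authors' deposited table gave Fga a mean of 129633 in normal and 28917 in model, a log2 fold of -2.16, with an adjusted p of 0.268. Fgb stood at -1.81 (adjusted p = 0.299) and Fgg at -1.73 (adjusted p = 0.313) in the authors' deposited table. None of the 3 passed there in the model group, and all 3 passed in the authors' deposited table of SAR against model, with log2 folds of 1.10, 0.84 and 0.75 (adjusted p = 0.000138, 0.0039 and 0.0112). The fibrinogen genes are acute phase genes, and the part of normal c in their normal mean was not tested, since they were not recovered there.

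Anticoagulant and fibrinolytic genes held members with and without a change with SAR. Proc, protein C, stood at 7441, 6951 and 7232 in normal, at 4237, 4722 and 6742 in model and at 10905, 10808 and 10716 with SAR. Its SAR libraries lay above all others, and it rose by 1.10 (SE 0.25, adjusted p = 0.0132) against model, while its model value of -0.49 (adjusted p = 0.141) against normal did not pass. Pros1, the cofactor of protein C, stood at 1810, 2045 and 3386 in normal, at 939, 923 and 1218 in model and at 909, 1288 and 1220 with SAR. It fell by 1.19 (SE 0.25, adjusted p = 0.0102) in the model group and was the hepatocyte-made member with the smallest value with SAR, 0.16 (SE 0.19, adjusted p = 0.529). The SAR and model libraries of Pros1 overlapped, and both lay below the normal libraries.

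Serpinc1, antithrombin, stood at -0.88 (adjusted p = 0.0829) in the model group and rose with SAR by 1.02 (adjusted p = 0.0487). Serpind1, heparin cofactor II, fell by 0.80 (adjusted p = 0.0362) and rose by 0.89 (adjusted p = 0.0329). Serpinf2, the plasmin inhibitor, fell by 1.17 (adjusted p = 0.0255), with normal c at 16002 against 8763 and 8214, and rose by 0.86 (adjusted p = 0.0306). Plg, the precursor of plasmin, was at 4392, 4807 and 8695 in model and at 11412, 23645 and 18959 with SAR, with no overlap, and rose by 1.62 (SE 0.37, adjusted p = 0.0139). In the authors' deposited table Plg had means of 28205 in normal and 6624 in model, a log2 fold of -2.09 (adjusted p = 0.00503).

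Many of these coagulation calls were lost with 1 library left out, where a smaller group and the library itself cannot be told apart. In the model group, those of F2, F10, F11, F12, Klkb1, Serpind1 and Serpinf2 were each lost without normal a, without model a and without model b. All of these but Serpinf2 were lost without normal b, and F2, F10, F11 and Serpind1 also without normal c. Their highest adjusted p was between 0.095 for F12 and 0.176 for F2. With SAR, the calls of F5, F7, F9, F10, F12, F13b, Plg, Proc, Serpinc1, Serpind1 and Serpinf2 were each lost without model b, without SAR b and without SAR c. All of these but Proc were lost without model a, and F5, F12 and Serpinc1 also without SAR a, with highest adjusted p-values from 0.0715 for Plg to 0.191 for Serpinc1. All 19 coagulation members stood higher in model c than in both other model libraries, by a median log2 difference of 0.59.

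Among hepatocyte complement genes, 10 of 14 tested fell in the model group and 4 did not pass, and 11 of 14 rose with SAR. In the model group the largest of these changes were in C8b and C6, terminal components that build the membrane pore. C8b, the beta chain of C8, stood at 4939, 4826 and 4666 normalised reads in normal, at 705, 755 and 1166 in model and at 3678, 3872 and 3698 with SAR. The model libraries were the lowest by a wide gap, and the SAR libraries lay between the others. C8b fell, at -2.50 (SE 0.21, limma adjusted p = 0.000803) and rose by 2.15 (SE 0.21, adjusted p = 0.000535), and in SAR against normal its value was -0.36 (SE 0.13, adjusted p = 0.136).

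C8a, the alpha chain, stood at 6976, 8138 and 9446 in normal, at 2791, 3013 and 3267 in model and at 8143, 7992 and 7535 with SAR. It fell by 1.43 (SE 0.20, adjusted p = 0.00296) and rose by 1.41 (SE 0.19, adjusted p = 0.00179), with the SAR libraries inside the normal range. C8g, the gamma chain, was at 3893, 3857 and 1825 in normal, at 1473, 1656 and 2571 in model and at 4425, 4124 and 4084 with SAR. Normal c fell among the model libraries, and C8g did not pass in the model group, at -0.71 (SE 0.35, adjusted p = 0.135), but rose with SAR by 1.21 (SE 0.23, adjusted p = 0.00629). C6, which joins the pore before C8, was at 4337, 3911 and 1354 in normal, at 950, 774 and 665 in model and at 3888, 2434 and 3268 with SAR. Normal c was the lowest normal library here too but lay above the model group, and C6 fell by 1.85 (SE 0.42, adjusted p = 0.0129) and rose by 2.01 (SE 0.21, adjusted p = 0.000889). Hc, which encodes C5, fell by 1.02 (adjusted p = 0.0217) and rose by 0.66 (adjusted p = 0.0415), and C9, which polymerises in the pore, was at -0.63 (adjusted p = 0.125) in model and rose by 1.03 with SAR (adjusted p = 0.0222).

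The lectin pathway begins with the mannose-binding lectins Mbl1 and Mbl2 and their proteases Masp1 and Masp2. Mbl2 stood at 2696, 2645 and 1540 in normal, at 785, 1000 and 1164 in model and at 4875, 4682 and 4383 with SAR, so that each SAR library lay above each normal one. Mbl2 fell by 1.20 (SE 0.26, adjusted p = 0.0107) in the model group and had the largest rise of the members with SAR, 2.28 (SE 0.19, adjusted p = 0.000285). Mbl1 stood at 2968, 3283 and 3268 in normal, at 1309, 1335 and 2211 in model and at 4136, 3112 and 3156 with SAR. It fell by 1.02 (adjusted p = 0.0124) and rose by 1.15 (adjusted p = 0.00927), and its SAR and normal libraries overlapped. Masp2 fell by 1.29 (adjusted p = 0.00534) and rose by 1.23 (adjusted p = 0.00458), and Masp1 fell by 1.03 (adjusted p = 0.0306) and did not pass with SAR, at 0.69 (SE 0.23, adjusted p = 0.0544).

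C1ra, the protease that works with C1q, followed the hepatocyte genes, not the C1q chains. It stood at 3132, 3157 and 3926 in normal, at 1910, 1868 and 2571 in model and at 3600, 3704 and 4072 with SAR. The model libraries were the lowest 3, and C1ra fell by 0.69 (adjusted p = 0.0267) and rose by 0.87 (adjusted p = 0.0106). C3, the hub of all pathways, had means of 151086 in normal and 55385 in model in the authors' deposited table, a log2 fold of -1.45 (adjusted p = 0.18), and a log2 fold of 0.43 (adjusted p = 0.352) with SAR there. Serping1, the inhibitor of C1 and of kallikrein, fell by 1.03 (adjusted p = 0.0472), with normal c at 19597 against 9249 and 9908, and rose by 0.79 (adjusted p = 0.0351). Cfi, the protease that inactivates C3b and C4b, passed in neither comparison, at -0.80 (adjusted p = 0.0695) and 0.75 (adjusted p = 0.0637). C2, a protease of the C3 convertase, was low and passed in neither, at 0.06 (SE 0.27, adjusted p = 0.864) and 0.45 (SE 0.24, adjusted p = 0.189).

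Of these complement calls in the model group, those of Serping1, C1ra, Hc, Masp1 and Mbl1 were lost without model b. All but that of Mbl1 were lost without normal b and without model a. Those of Serping1 and C1ra were also lost without normal a, and those of Serping1, C1ra and Masp1 without normal c, with highest adjusted p-values from 0.0599 for Mbl1 to 0.161 for Serping1. With SAR, the calls of Serping1 and Hc were lost without any of model a, model b and SAR a, SAR b and SAR c (adjusted p up to 0.163). That of C9 was lost without model a, SAR a or SAR b (up to 0.0784), and those of C1ra and Mbl1 without model b (0.0636 and 0.0502).

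Some members share exon bases with another gene in GENCODE vM21, and no strand setting of the counting is stated, so their values are uncertain. Masp2 shares 54.9% of its exon bases with Tardbp on the opposite strand, Serpinc1 34.4% with Zbtb37 on the opposite strand and Klkb1 43.2% with Gm45753 on the same strand. C2 shares 42.8% with Gm20547 on the same strand, which shares 79.5% of the exon bases of Cfb. Tardbp and Zbtb37 did not move with their partners, at 0.02 and -0.01 in the model group (adjusted p = 0.922 and 0.981). Plg shares 11.3% with Slc22a3, and the overlaps of other members were at or under 5.49% of their exon bases. Slc22a3 stood at -1.11 in the model group (limma adjusted p = 0.0792), the direction of Plg, and at -0.53 with SAR (0.388). Zbtb12, which shares 4.16% of the exon bases of C2, was at 1.23 in the model group (limma adjusted p = 0.0432). No value was fitted for Gm45753.

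**Figure D3:**
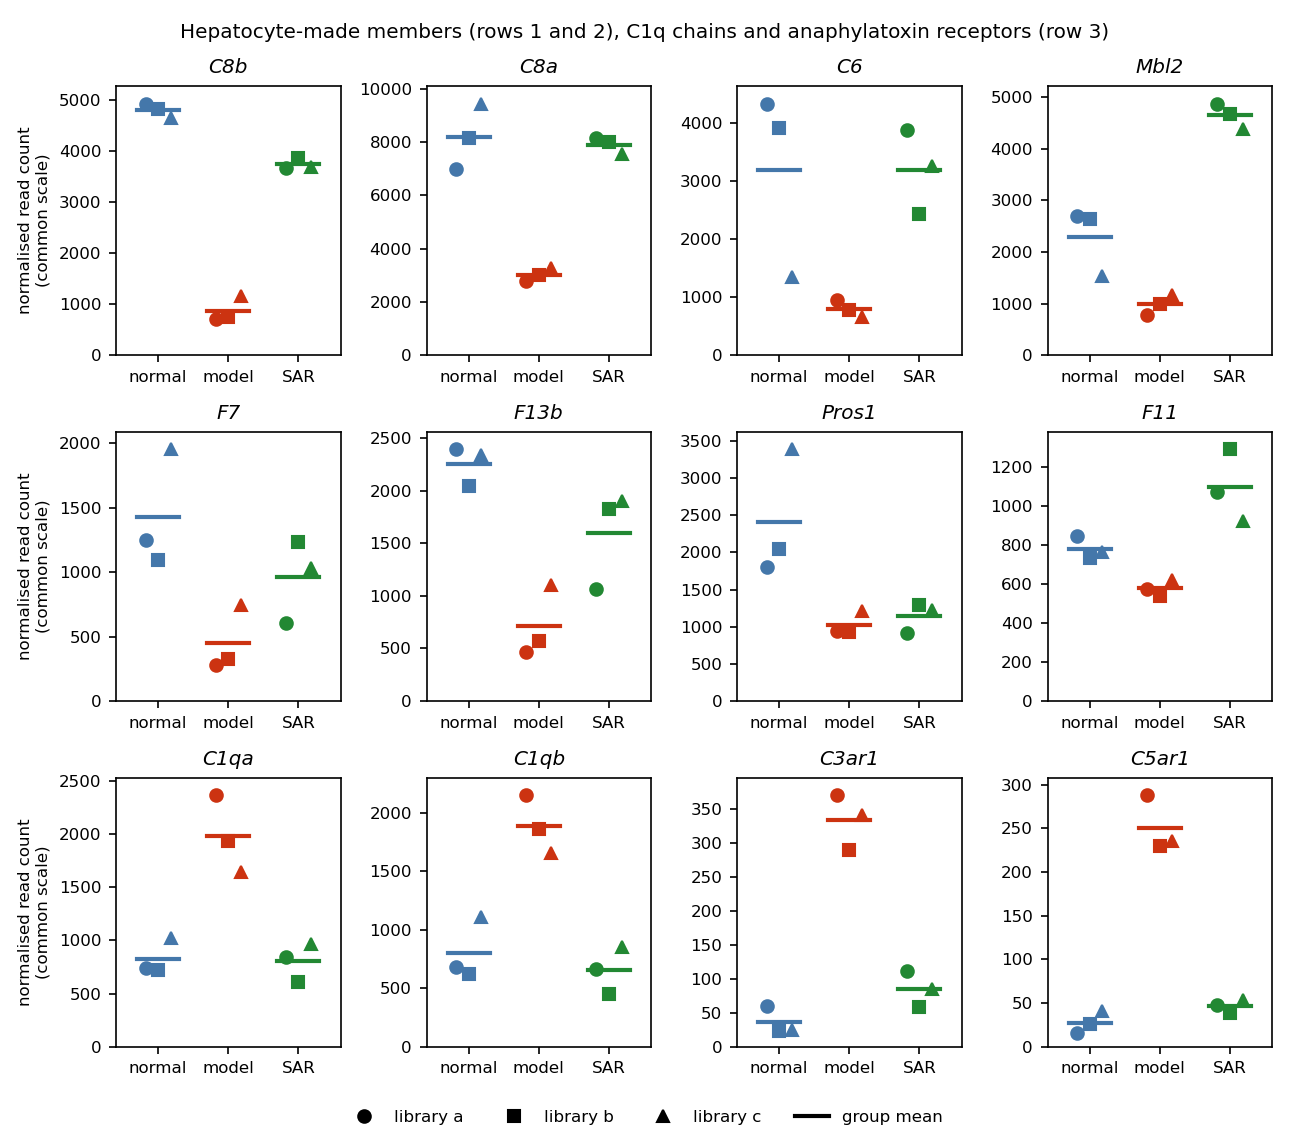
Normalised read counts on a common scale (axes from 0) for 12 members, with 1 point per library and a bar at each group mean. Rows 1 and 2 are hepatocyte-made members, whose model libraries are low, and row 3 shows 2 C1q chains and the receptors of C3a and C5a, whose model libraries lie above all 6 others.

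The C1q chains, which recognise immune complexes and dying cells, had the same pattern as one another. C1qa stood at 737, 719 and 1022 normalised reads in normal a, b and c, at 2366, 1938 and 1645 in model and at 841, 612 and 970 with SAR. C1qb was at 681, 624 and 1109, then 2149, 1864 and 1652, then 668, 448 and 854, and C1qc at 590, 594 and 916, then 1480, 1404 and 1332, then 644, 448 and 775. All model libraries lay above all others, and the normal and SAR libraries overlapped for each chain. C1qa, C1qb and C1qc rose by 1.26 (SE 0.20), 1.27 (SE 0.23) and 1.03 (SE 0.19) in the model group (limma adjusted p = 0.004, 0.00657 and 0.00679). With SAR all 3 fell, with log2 fold changes of -1.28 (SE 0.21), -1.54 (SE 0.24) and -1.19 (SE 0.20) (adjusted p = 0.00402, 0.00289 and 0.00456). In model c, where hepatocyte coagulation members were highest, each chain was at its lowest of the model group.

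The receptors of the anaphylatoxins, C3ar1 for C3a and C5ar1 for C5a, both of myeloid cells, had larger log2 fold changes than C1q. C3ar1 stood at 59.5, 23.7 and 25.4 in normal, at 371, 291 and 342 in model and at 112, 58.1 and 84.6 with SAR. It rose by 3.30 (SE 0.35, adjusted p = 0.00134) and fell by 1.99 (SE 0.25, adjusted p = 0.00136). C5ar1 was at 15.4, 25.9 and 40.8 in normal, at 288, 230 and 235 in model and at 47.7, 38.7 and 53.9 with SAR. It rose by 3.25 (SE 0.35, adjusted p = 0.00133) and fell by 2.38 (SE 0.21, adjusted p = 0.000379), and the model libraries of both receptors lay above all others. The difference in change between these receptors and C1q was not tested.

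None of the other members made outside hepatocytes was called both higher in the model group and lower with SAR. Cfp and F3 did have the C1q order of group means, highest in model and lowest with SAR. Cfp, properdin, which stabilises the C3 convertase and comes from leukocytes, was at 0.26 (adjusted p = 0.326) in the model group and fell with SAR by 0.72 (SE 0.16, adjusted p = 0.0129), a call lost without SAR b (adjusted p = 0.0537). F3, tissue factor, was at 0.37 (adjusted p = 0.45) and -1.11 (SE 0.49, adjusted p = 0.118). F8, the cofactor made by endothelium, stood at 173, 234 and 99.2 in normal, at 47.5, 39.7 and 78.9 in model and at 53.7, 37.5 and 87.2 with SAR. It fell by 1.57 in the model group (SE 0.38, adjusted p = 0.0158), a call lost without normal a, normal b, model a or model b (up to 0.0615), and it was at 0.10 (adjusted p = 0.861) with SAR. Of 9 endothelial markers 1 rose and 3 fell in the model group, beside 20% and 19% of all genes. The summed level of these markers was 2501 to 5214 in normal, 3141 to 3348 in model and 1410 to 2976 with SAR, with no marker at 0 throughout a group. The part of these cells in the F8 values was not tested.

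Macrophage markers moved beside C1q. Of all genes, 20% were called higher and 19% lower in the model group, and 13.2% and 16.2% with SAR. Of 10 general macrophage markers 7 rose and 1 fell in the model group, and 9 fell and 1 rose with SAR. Their summed level was 4618 to 6431 in normal, 14563 to 16216 in model and 5316 to 6665 with SAR. Of 10 markers of lipid-associated and recruited macrophages all rose in the model group, with a median log2 fold change of 4.96, and 9 fell with SAR, with a median of -2.08. Their summed level was 1026 to 1511, then 17309 to 26394, then 3650 to 6820. Of 7 markers of resident Kupffer cells 4 fell and none rose in the model group (2 to 5 with 1 library left out), and with SAR the 6 tested ranged from -0.59 to 0.97 (adjusted p from 0.341 to 0.94). No marker of the 3 lists was at 0 throughout a group, and their part in the C1q and receptor values was not tested.

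The summed C1q level was 1936 to 3048 in normal, 4629 to 5995 in model and 1508 to 2598 with SAR. Its SAR libraries were thus back in or below the normal range, while each SAR library of the recruited macrophage list lay above each normal one. Of that list, 6 of 10 markers were still higher with SAR than in normal (2 to 7 with 1 library left out). Neutrophil markers bear on C5ar1. Of 9 tested, 1 rose in the model group (0 to 9 with 1 library left out), beside 20% of all genes. With SAR, beside 16.2% of all genes, 7 of these markers fell (3 to 8). Their summed level was 105, 254 and 7805 in normal, the last in library c, 1266 to 2850 in model and 234 to 600 with SAR.

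**Figure D4:**
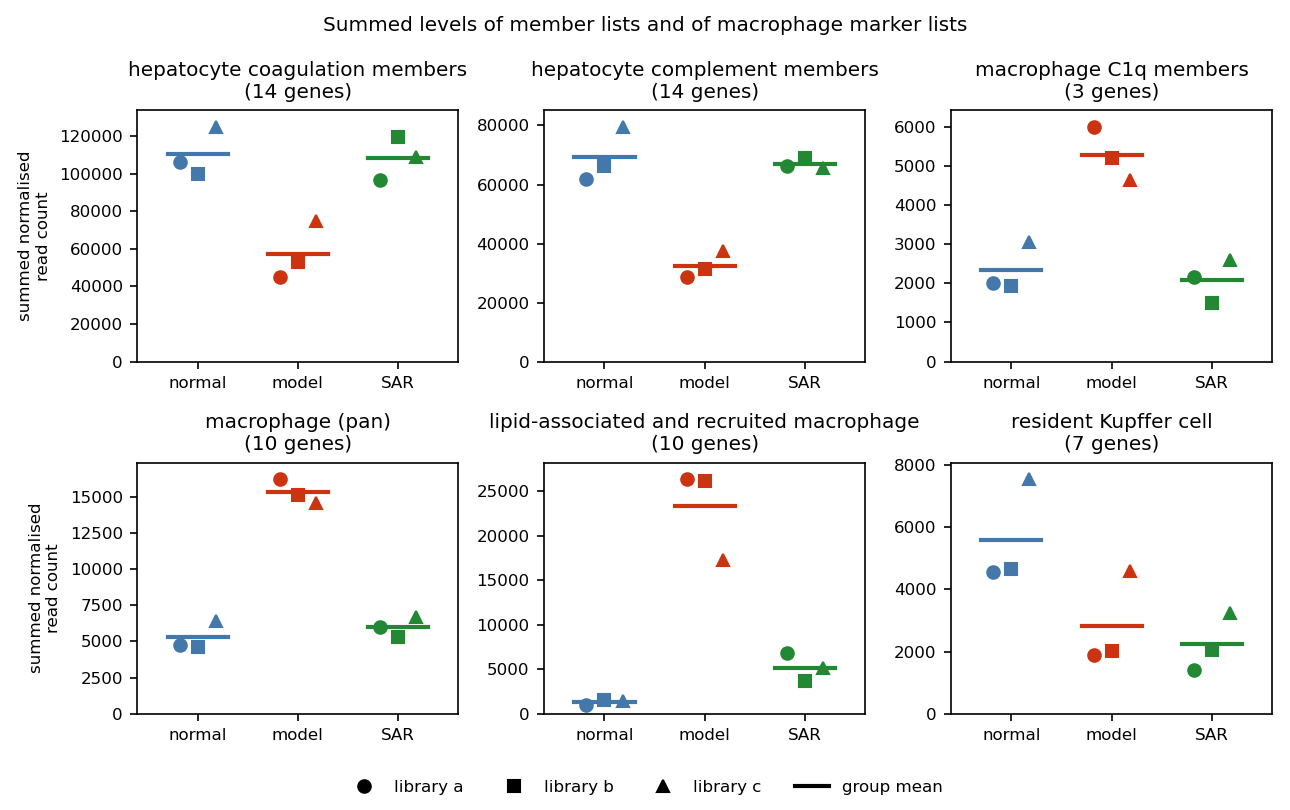
Summed normalised read counts (axes from 0) of 3 member lists and 3 macrophage marker lists, with 1 point per library and a bar at each group mean. Both hepatocyte lists are lowest in the model group, and C1q is highest there, as are the general and recruited macrophage lists, while the Kupffer cell list is highest in normal.

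Between SAR and normal, few of the members tested differed. Of 36 members tested, 1 rose, 0 fell and 35 did not pass, beside 1.72% of all 11602 genes called higher and 1.81% called lower by limma. The most abundant members per kb, Fga, Fgb, Fgg, C3, Plg and Kng1, could not be tested here. In the authors' deposited tables, each on its own scale, Fga had means of 129633 in normal and 57008.5 with SAR. Those of Fgb were 147080 and 68756, of Fgg 90924 and 42223 and of C3 151086 and 68455. Plg stood at 28205 and 18599 and Kng1 at 50901 and 41173. At an unadjusted p under 0.05, 3 of 28 hepatocyte-made members were higher and 3 lower, and of all 11602 genes 1470 were higher and 1566 lower at that threshold. Without normal c, 2 members passed upward, Mbl2 (adjusted p = 0.0132) and Proc (0.0469), and 2 downward, Pros1 (0.0294) and F8 (0.0152), while the calls over all genes numbered 1089 in place of 409. A single fit over all 9 libraries called Pros1 lower, and limma voom called no member. Of 1592 genes whose mean was 1000 or more, 2.58% were called higher and 2.89% lower. The median over the 28 hepatocyte-made members was -0.03. The member that passed was Mbl2, at 1.06 (SE 0.22, adjusted p = 0.0454), and this call was lost without normal a, normal b or any SAR library (up to 0.136). Proc was at 0.58 (SE 0.16, adjusted p = 0.0719), and Pros1 and F8 at -1.04 (SE 0.25, adjusted p = 0.0582) and -1.49 (SE 0.39, adjusted p = 0.0687), with no overlap of the libraries. C1qa, C1qb and C1qc were at -0.04, -0.29 and -0.17 and none passed by limma, by limma voom or at an unadjusted p under 0.05. A value that did not pass does not show that SAR and normal were alike.

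Other genes of these pathways were counted on 4 lists. Of all genes, 20% were called higher and 19% lower in the model group, and 13.2% and 16.2% with SAR. Counts near these shares do not set a list apart from other genes. Of 9 further complement components tested in the model group 1 rose and 3 fell, and of 10 tested with SAR 5 rose and 1 fell. With 1 library left out, the number that fell was 2 to 7 and the number that rose with SAR was 2 to 8. Cfhr2, a relative of complement factor H, fell by 1.16 (limma adjusted p = 0.00786) and rose by 1.32 (adjusted p = 0.00537). Of 15 complement regulators and receptors 3 rose and 4 fell in the model group, and of 16 with SAR 5 rose and 3 fell. Leaving out 1 library gave 1 to 3 and 1 to 5 in the model group, and 2 to 7 and 3 with SAR. Itgb2, a chain of complement receptor 3 on leukocytes, rose by 2.61 (adjusted p = 0.00134) and fell by 1.83 (adjusted p = 0.000852), and Cpn2, a subunit of the carboxypeptidase that inactivates anaphylatoxins, fell by 1.91 (adjusted p = 0.00392) and rose by 1.27 (adjusted p = 0.00945).

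Of 18 other coagulation and protein C pathway genes 3 rose and 7 fell in the model group, and 6 rose and 5 fell with SAR. The shares over all genes were 20% higher and 19% lower in the model group, and 13.2% and 16.2% with SAR. With 1 library left out the counts of this list ranged over 1 to 4 and 2 to 8 in the model group, and over 1 to 8 and 1 to 6 with SAR. Procr, the receptor of protein C, rose by 3.34 (adjusted p = 0.0048) in the model group. Of 13 genes of fibrinolysis and protease inhibition 6 rose and 2 fell in the model group, and of 14 with SAR 3 rose and 6 fell. Leaving out 1 library gave 5 to 7 and 1 to 3 in the model group, and 2 to 4 and 6 to 7 with SAR. The plasminogen activators Plat and Plau rose by 4.65 and 3.95 (adjusted p = 0.00381 and 0.000447) and fell with SAR, at -4.05 and -2.51 (adjusted p = 0.00505 and 0.00177). Anxa2, which binds plasminogen at cell surfaces, rose by 3.91 (adjusted p = 0.000548) and fell by 3.07 (adjusted p = 0.000277). Stellate cell and fibroblast markers moved beside them, with 6 of 8 higher in the model group (4 to 6 with 1 library left out, median 2.35) and 7 of 8 lower with SAR (3 to 7, median -1.45). Their summed level was 1001 to 4004 in normal, 10097 to 21702 in model and 3417 to 5918 with SAR, with no marker at 0 throughout a group. In model c, Plat stood at 88.5 against 369 and 330 in the other model libraries, and Col1a1, a collagen gene on that list, at 687 against 4911 and 4032. The part of these cells in the Plat, Plau and Anxa2 values was not tested.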

How the data were processed

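Liver RNA of 9 samples in 3 groups was sequenced by the submitters. Reads were placed on mm9, per the submitters' processing notes, and for the aligner, counter and gene models a name is not given in the sources used here. The deposited signal values are group means of read counts divided by size factors, per the file headers, in a table of model against normal and a table of SAR against model. The authors' deposited fold is the ratio of 2 group means, and the deposited log2 value is its logarithm. The deposited p-values, raw and adjusted, come from the authors' DESeq test, per the file headers.

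From the 15 digits of each deposited mean, the whole reads of the 3 libraries behind it were recovered. Each of the 14996 normal, 15909 and 15902 model and 14927 SAR means tried alone gave 1 solution. The model's reads were identical in both tables for 15992 of 15992 genes, and of 500 means moved on purpose 0 could be solved. The recovery and the fit were tested on simulated data. Of 16521 Ensembl IDs, 16490 were paired with a symbol.

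Recovered reads divided by size factors were tested with limma 3.58.1 (R 4.3.3, trended variance, two-sided) on log2(value + 1), for genes with a mean of at least 10, within the 2 groups compared. Adjusted p-values are Benjamini-Hochberg over all genes tested, and every SE belongs to a log2 fold change over 3 libraries a group. An exact permutation test of 3 against 3 could not go below 0.1. Values by library are on a scale common to the 9 libraries (median of ratios). Python 3.11.15, numpy 2.4.6 and pandas 2.3.3 were used.

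Every member is accounted for, and at most 3 genes a direction are named from each further list, those of largest change, and a few results are not reported here. Members and lists were chosen with earlier results of these data known. Alternatives were other pseudocounts (0.5 and 10), filters, scalings and fits and each library left out in turn.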

Additional observations from a re-analysis of the deposited data

How the results depend on the processing

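No member that passed the test changed sign in another fit, while on the scale of the summed group means F11 did in the model group. Values near 0 that had not passed, such as those of C2 and Proc in the model group and of Pros1 with SAR, changed sign under some settings. Of the members' alternative values, 1452 kept their side of the threshold, 163 lost their call and 31 gained one. The 1452 include members that had not passed and stayed so. With 1 library left out, 157 values were kept, 53 lost and 6 gained in the model group. For SAR against model these numbers were 163, 62 and 3, and for SAR against normal 208, 5 and 3. With 1 library left out, the members that fell in the model group numbered 9 to 26 and those that rose with SAR 9 to 27. Between SAR and normal, 0 to 2 rose and 0 to 2 fell. Calls over all genes, in both directions, ranged in these fits from 2426 to 5785, from 1543 to 5158 and from 6 to 1089. Settings chosen after seeing the data were quantile normalisation, limma voom, leaving out normal c with model c and scaling to the summed group means. Quantile normalisation gave 12 members lower in the model group (22 otherwise) and 10 higher with SAR (24 otherwise). Calls over all genes were 4422 (4897 otherwise) and 2848 (3663 otherwise). Limma voom called 0 members higher in SAR against normal (1 otherwise), and a single fit over 9 libraries called 1 lower (0 otherwise). Scaled to the summed group means, the hepatocyte-made medians were -0.51 and 0.36 and the C1q medians 1.80 and -1.84. The cause of these shifts was not tested. Other pseudocounts, filters, a trimmed mean scaling and the authors' deposited adjusted p kept each count of calls within 1.5 times. Single members differed by that deposited adjusted p. In the model group 4 lost their call, among them F11 (0.234), Serping1 (0.129) and Serpinf2 (0.0551). There 2 gained one, F5 (0.0215) and Serpinc1 (0.00403). With SAR 1 lost it, F7 (0.118), and 2 gained one.

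No paired analysis was possible because the recovered libraries carry no replicate number. The planned edgeR and DESeq2 fits were not run, and limma voom on the recovered reads was the only count-based fit made. Only 3 libraries a group and low reads limit C3ar1, C5ar1, F8, F3 and C2. Fibrinogen and C3 could not be split by library in the normal and SAR groups.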
